A study of Mus musculus with 25 samples.

Results

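miR-21 is a microRNA (miRNA), a short RNA that guides silencing proteins to messenger RNAs. It was followed in mouse mammary tumours through its array names, mmu-miR-21-5p and mmu-miR-21-3p, the mature products of the 5′ and 3′ arms of a single hairpin. These were 2 of the 1122 mouse miRNAs on the array, both were among the 330 that were tested, and their levels were read in normal mammary gland, in tumours of 3 genotypes and in tumours of different pathology. RNA came from snap-frozen tissue of female FVB mice and was hybridised to 25 one-colour Agilent miRNA arrays.

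The tumour groups were 8 MetTrp53 tumours (MMTV-Met;Trp53fl/+;Cre), 8 Trp53 tumours (Trp53fl/+;Cre) and 7 Met tumours (MMTV-Met). The normal group was 2 pools of wild-type mammary gland, 1 from multiparous and 1 from nulliparous mice. Met is a receptor tyrosine kinase, here driven as a transgene by the mouse mammary tumour virus (MMTV) promoter. Trp53 encodes the tumour suppressor p53, and 1 allele was conditionally deleted by Cre. The promoter that drives Cre, the age of the mice and the number of animals in a pool are not given in the sources used here. Spindloid pathology, a spindle-shaped growth pattern, was stated for 3 MetTrp53, 3 Trp53 and 1 Met tumours, intermediate pathology for 1 MetTrp53 and 2 Trp53 tumours, and some form of carcinoma for 3 MetTrp53, 3 Trp53 and 6 Met tumours. For 1 MetTrp53 tumour no pathology was stated.

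As background, the primary transcript of miR-21 is cut by Drosha and Dicer, and the 5p strand is the one that is mostly kept. It is widely described as raised in cancers, breast cancer among them, and as a repressor of growth-restraining genes such as Pdcd4. In mouse tissue it is made by epithelial tumour cells and also by fibroblasts and immune cells. In RNA from whole tissue, fewer cells of a type and less RNA per cell cannot be told apart.

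The sequences below, from RefSeq on build GRCm38.p6, show what the array names stand for and which near-identical mouse miRNAs exist. RefSeq calls the gene Mir21a and the 5p product miR-21a-5p. Capitals mark the seed, bases 2 to 8, through which a miRNA mainly pairs with its targets.
miR-21a-5p: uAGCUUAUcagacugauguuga
miR-21a-3p: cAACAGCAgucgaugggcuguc
miR-21b: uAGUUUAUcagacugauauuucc
miR-21c: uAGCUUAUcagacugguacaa

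The arms lie on the minus strand of chromosome 11, miR-21a-5p at chr11:86584120-86584141 and miR-21a-3p at chr11:86584082-86584103. The hairpin gene spans chr11:86584067-86584158, inside the bounds of Vmp1 (chr11:86583858-86683836), which is on the same strand. The table used here gives gene bounds only, so exon or intron is not stated. miR-21c, at chr8:128278188-128278208 on the minus strand, has the seed of miR-21a-5p and differs from it at A16G, G18A, U19C, U20A and G21A, with the base of miR-21a-5p first and positions counted from the 5′ end. miR-21b, at chr3:29636768-29636790 on the plus strand, has another seed and differs at C4U, G18A, G21U and A22C. Neither name is among the 1122 on the array, and binding of either to the miR-21-5p probes cannot be separated from miR-21-5p itself.

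miR-21-5p was a bright signal on every array. Its probes, A_54_P1307 and A_54_P1308 with 20 spots each, were well above background on all 25 arrays and no spot was saturated. Over arrays, the brighter probe ran from 670.1 to 42220 intensity units and the dimmer one from 122.8 to 8661. The gap between them moved with the array slide: it averaged 2.39 on the log2 scale on slide 1, 2.29 on slide 2, 1.91 on slide 3, 2.02 on slide 4 and 1.66 on slide 5. Levels below are the mean of both probes in log2 units of intensity after scaling the arrays to one another. From 220 to 334 mouse miRNAs were detected per array, and the scaling intensity, the 75th percentile over bright probes, ran from 278.8 to 908.9. No arrays correlated above r = 0.982 over the tested miRNAs, and the lowest r was 0.67. Met tumour 1 had both the lowest scaling intensity and the fewest miRNAs detected, and it is named where a result rests on it.

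The 23 tumours had more miR-21-5p than the pools. Their levels ran from 9.20 to 13.89 with a median of 12.72, against 9.50 in the multiparous pool and 10.99 in the nulliparous pool. Of the tumours, 21 lay above both pools, Met tumour 3 lay between them at 10.78, and Met tumour 1 lay below both at 9.20. The mean over genotypes was higher than normal by 2.13 (SE 0.67, 95% confidence interval 0.75 to 3.52, limma adjusted p = 0.0345), a 4.39-fold difference and the third highest change among 330 miRNAs. In that comparison 12.7% of the miRNAs tested were called, 4.85% of them higher in tumours and 7.88% lower. The median change of the 160 miRNAs detected on all arrays was 0.34, and relative to it miR-21-5p was higher by 1.79. An exact two-sided permutation test of the plain difference in means, 2.17, gave p = 0.02 over 300 splits, where the smallest p possible is 0.00333.

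The pools were the weak side of this comparison, since their own levels were 1.49 apart. Without the multiparous pool the difference was 1.39 (limma adjusted p = 0.593), and without the nulliparous pool it was 2.88 (limma adjusted p = 0.0551). The multiparous pool was on slide 1 and the nulliparous one on slide 3, so parity and slide cannot be told apart for them. Within slide 1 the 4 tumours averaged 2.09 above the pool, and within slide 3 the 4 tumours averaged 1.66 above it. The call was also lost with slide as a block in the fit, at 1.75 (limma adjusted p = 0.107), with scan date as a block, at 1.80 (limma adjusted p = 0.0655), and with the percentile over all mouse probes, at 1.77 (limma adjusted p = 0.136).

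**Figure D1:**
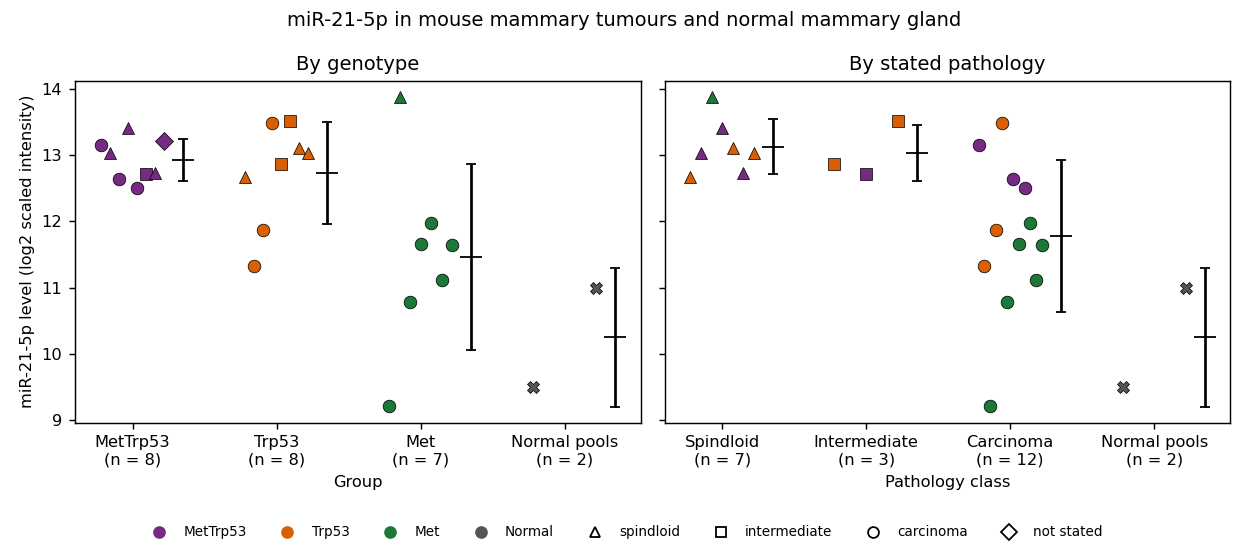
miR-21-5p level (log2 scaled intensity) in each tumour and each normal pool, by genotype on the left and by stated pathology on the right, with bars for mean and SD. The MetTrp53 tumours lie close together, the Met carcinomas lie below them, and the highest point of all is the single spindloid Met tumour at 13.89.

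Each genotype was then set against the same 2 pools, which these comparisons share. MetTrp53 tumours ran from 12.51 to 13.41 (median 12.89) and Trp53 tumours from 11.32 to 13.52 (median 12.95), against 9.50 and 10.99 in the pools, with no overlap. How many of all miRNAs lie apart from these 2 pools in this way was not counted. MetTrp53 tumours averaged 12.93 ± 0.32 (SD, n = 8), against 10.24 ± 1.05 in the pools (SD, n = 2), and were higher by 2.69 (SE 0.71, limma adjusted p = 0.0126, beside 14.8% of miRNAs called). Trp53 tumours averaged 12.73 ± 0.77 (SD, n = 8) and were higher than the pools by 2.49 (SE 0.71, limma adjusted p = 0.022, beside 13.3% called). Without the multiparous pool both calls were lost, at 1.94 (limma adjusted p = 0.351) for MetTrp53 and 1.75 (limma adjusted p = 0.488) for Trp53. With slide as a block the Trp53 call was lost at 2.19 (limma adjusted p = 0.0503) and the MetTrp53 difference passed at 2.27 (limma adjusted p = 0.0455), and with the percentile over all mouse probes neither passed.

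Met tumours spread far more widely. They ran from 9.20 to 13.89 (median 11.64), with 5 of 7 above both pools, and averaged 11.47 ± 1.41 (SD, n = 7). The difference from the pools was 1.22 (SE 0.72, 95% confidence interval -0.28 to 2.73, limma adjusted p = 0.377, beside 12.4% called). It did not pass the test, and the interval includes values as large as those of the other genotypes. Its size rested on the pools too, at 0.48 without the multiparous pool (limma adjusted p = 0.909) and 1.97 without the nulliparous pool (limma adjusted p = 0.321).

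**Figure D2:**
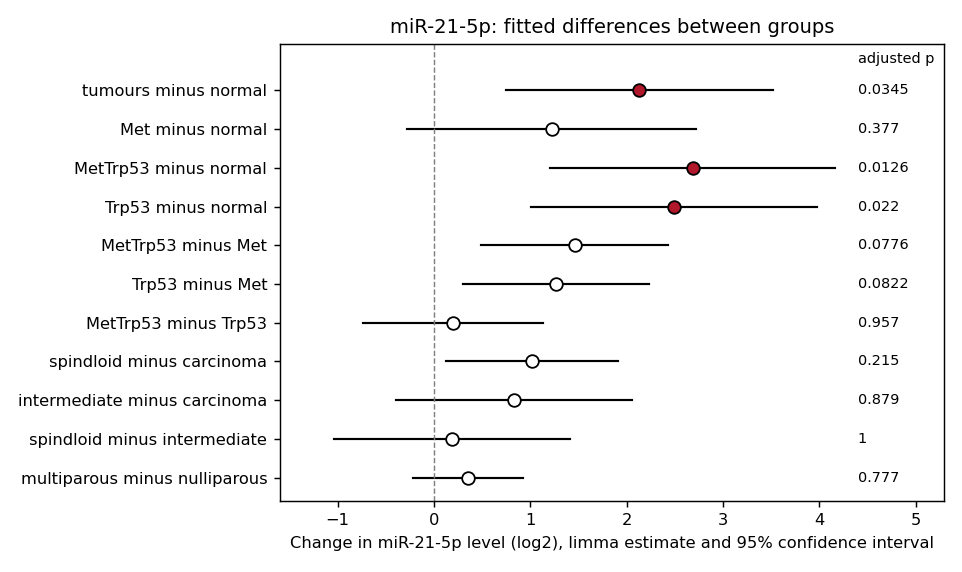
Fitted change in miR-21-5p level (log2) in each comparison, with its 95% confidence interval and limma adjusted p; filled points passed the threshold of 0.05. The filled points are the comparisons of all tumours, MetTrp53 tumours and Trp53 tumours with the normal pools.

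Between genotypes, the tumours with a deleted Trp53 allele had the higher levels. All 8 MetTrp53 tumours lay above 6 of the 7 Met tumours, the exception being the spindloid Met tumour 2. MetTrp53 tumours were higher than Met tumours by 1.46 (SE 0.47, 95% confidence interval 0.49 to 2.43), which did not pass the adjusted threshold (limma adjusted p = 0.0777). In that comparison 0% of miRNAs were called by limma, and 61 of 330 had an unadjusted p under 0.05. Without Met tumour 2 the difference was 1.87 (limma adjusted p = 0.00695, beside 12.4% called), and without Met tumour 1 it was 1.09 (limma adjusted p = 0.217).

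Trp53 tumours were higher than Met tumours by 1.27 (SE 0.47, 95% confidence interval 0.30 to 2.24, limma adjusted p = 0.0822, beside 10% of miRNAs called, 5.45% higher and 4.55% lower). Only 3 of the 7 Met tumours lay below all Trp53 tumours. Trp53 tumours 2 and 3, at 11.32 and 11.87, reached into the range of the Met carcinomas, 9.20 to 11.97. Because Met tumour 2 stood at 13.89, 0 of 8 Trp53 tumours lay above all Met tumours. Trp53 tumours 2 and 3 share a number in their titles, and whether they came from 1 animal is not stated. The difference passed the threshold without Met tumour 2, at 1.67 (limma adjusted p = 0.00519, beside 18.8% called), without Trp53 tumour 2, at 1.47 (limma adjusted p = 0.0385), and with scan date as a block, at 1.39 (limma adjusted p = 0.0429). Without Met tumour 1 it was 0.89 (limma adjusted p = 0.197).

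MetTrp53 and Trp53 tumours overlapped widely. Their difference was 0.20 (SE 0.45, limma adjusted p = 0.957, beside 0% called and 23 of 330 at an unadjusted p under 0.05), with a 95% confidence interval of -0.74 to 1.13 that leaves room for a change of either sign. The direction also turned with the scaling, at -0.09 when the percentile was taken over all mouse probes.

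Genotype and pathology were not balanced in this collection, because 6 of the 7 Met tumours were carcinomas. Among carcinomas alone, the 3 MetTrp53 tumours ran from 12.51 to 13.16 and the 3 Trp53 tumours from 11.32 to 13.49, against 9.20 to 11.97 in the 6 Met tumours. MetTrp53 and Met carcinomas did not overlap, and how many other miRNAs separate these small groups was not counted. The difference between MetTrp53 and Met carcinomas was 1.71 (SE 0.64, limma adjusted p = 0.92). In that comparison 0% of miRNAs were called and 15 of 330 had an unadjusted p under 0.05. Trp53 carcinomas were higher than Met carcinomas by 1.16 (SE 0.64, limma adjusted p = 0.507, 0% called and 30 of 330 at an unadjusted p under 0.05). With pathology as a covariate the differences from Met were 1.01 for MetTrp53 (limma adjusted p = 0.732) and 0.82 for Trp53 (limma adjusted p = 0.507). Parity was unbalanced as well, with 6 of the 7 Met tumours from multiparous mice. With parity as a covariate the differences were 1.67 (limma adjusted p = 0.40) and 1.49 (limma adjusted p = 0.335).

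By pathology, spindloid and intermediate tumours had high and narrow levels and carcinomas were spread over the whole range. Spindloid tumours ran from 12.67 to 13.89 with a median of 13.04 (n = 7), and the intermediate tumours stood at 12.72, 12.87 and 13.52, against 9.20 to 13.49 with a median of 11.77 in carcinomas (n = 12). Of the carcinomas, 10 lay below all spindloid tumours. The exceptions were MetTrp53 tumour 1 at 13.16 and Trp53 tumour 4 at 13.49, both labelled adenocarcinoma. Trp53 tumour 4 shares its title number with the spindloid Trp53 tumour 8, which stood at 13.03.

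With genotype as a covariate, spindloid tumours were higher than carcinomas by 1.02 (SE 0.43, 95% confidence interval 0.13 to 1.91, limma adjusted p = 0.215, beside 5.76% called, 1.52% higher and 4.24% lower), and the difference did not pass. Without that covariate it was 1.35 (limma adjusted p = 0.0412, beside 11.5% called). Inside each genotype the spindloid mean was above the carcinoma mean, by 0.30 among MetTrp53 tumours (3 against 3), by 0.71 among Trp53 tumours (3 against 3) and by 2.83 among Met tumours (1 against 6). The largest of these rests on Met tumour 2 alone, and without it the fitted difference was 0.50 (limma adjusted p = 0.735). Among tumours with the Trp53 deletion the fitted difference was also 0.50 (limma adjusted p = 0.562). Interaction terms compare these within-genotype differences. They were -2.54 for MetTrp53 against Met and -2.12 for Trp53 against Met, both resting on Met tumour 2, and -0.42 (SE 0.89) for MetTrp53 against Trp53. No term passed the adjusted threshold, so the within-genotype differences were not shown to differ from one another. With 1 spindloid Met tumour they were not shown to be alike either.

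Intermediate tumours were above carcinomas by 0.83 (SE 0.58, 95% confidence interval -0.40 to 2.06, limma adjusted p = 0.879). Spindloid and intermediate tumours differed by 0.19 (SE 0.58, 95% confidence interval -1.04 to 1.42, limma adjusted p = 1). In both comparisons 0% of miRNAs were called by limma, with 26 and 5 of 330 at an unadjusted p under 0.05. Set against the normal pools in one fit of all arrays, spindloid tumours were higher by 2.88 (SE 0.72, limma adjusted p = 0.0084, beside 13.3% called) and intermediate tumours by 2.79 (SE 0.82, limma adjusted p = 0.0236, beside 13.6% called). Carcinomas were above the pools by 1.54 (SE 0.69, limma adjusted p = 0.186, beside 13.3% called), with 10 of 12 above both. Whether the spindloid and intermediate calls hold without either pool was not tested.

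Within single slides, the spindloid mean was above the carcinoma mean on all 5 slides, with 1 to 3 tumours on either side. The differences were 1.44, 1.42, 1.26, 1.25 and 1.24 on slides 1 to 5. On slide 1 the spindloid tumour stood at 12.67, and the carcinomas at 13.16, 11.32 and, for Met tumour 1, 9.20. On slide 2 the spindloid tumours stood at 13.04 and, for Met tumour 2, 13.89. Slide differences without these Met tumours were not computed. MetTrp53 tumours were above Met tumours on every slide by 0.70 to 3.96, and Trp53 tumours by 0.34 to 2.79. MetTrp53 tumours were above Trp53 tumours on slides 1 to 3, by 1.16, 0.36 and 0.16, and below them on slides 4 and 5, where the differences were -0.70 and -0.05. The smallest differences from Met tumours came from slide 2, which holds Met tumour 2, and the largest from slide 1, which holds Met tumour 1. These within-slide values are not adjusted for genotype or pathology.

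**Figure D3:**
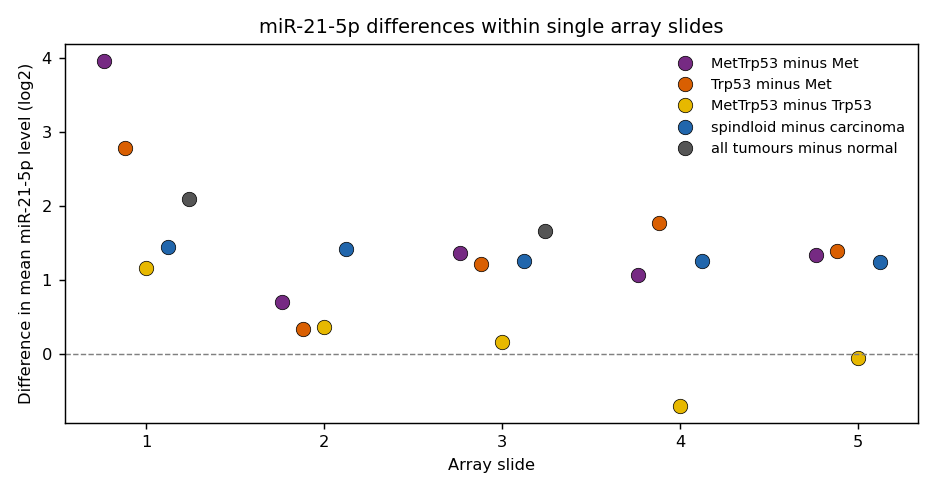
Difference in mean miR-21-5p level (log2) between groups on the same array slide, for 4 comparisons on 5 slides and for tumours against normal on the 2 slides that hold a pool. MetTrp53 minus Trp53 lies on both sides of 0 and every other point above it. The differences from Met range widely on slides 1 and 2, and the spindloid differences lie between 1.24 and 1.44. The spindloid differences include Met tumour 1 among the carcinomas of slide 1 and Met tumour 2 among the spindloid tumours of slide 2.

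Parity was compared within the Trp53-deleted tumours, where it was stated for 13. Tumours of multiparous mice stood at 12.64 and 13.16 in MetTrp53 and at 13.11 and 13.52 in Trp53. Tumours of nulliparous mice ran from 12.51 to 13.41 in the 6 MetTrp53 tumours and stood at 11.87, 12.67 and 12.87 in the 3 Trp53 tumours. The difference with genotype as a covariate was 0.35 (SE 0.26, 95% confidence interval -0.21 to 0.92, limma adjusted p = 0.777), and it ranged from 0.19 without Trp53 tumour 3 or 6 to 0.59 without MetTrp53 tumour 3. In the main comparison 0% of miRNAs were called by limma, with 17 of 330 at an unadjusted p under 0.05.

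The other arm, miR-21-3p, was seen only dimly and only in tumours. Of its 4 probes with 10 spots each, A_54_P3444 and A_54_P3445 were well above background on no array, A_54_P3446 on 15 tumour arrays and A_54_P3447 on 20 tumour arrays, and none on a pool. The probe seen most often, A_54_P3447, was well above background in 8 of 8 MetTrp53, 8 of 8 Trp53 and 4 of 7 Met tumours. By pathology it was seen in 7 of 7 spindloid tumours, 3 of 3 intermediate tumours and 9 of 12 carcinomas. Its intensity ran from 22.9 to 61.2 in MetTrp53, from 12.2 to 46.0 in Trp53 and from 0.656 to 57.1 in Met tumours, against 0.776 and 6.43 in the pools. The scanner software called the miRNA detected in the nulliparous pool, although none of its probes reached the threshold there.

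Since no probe was measured in the pools, fold changes against them are lower bounds, taken against the floor of 3.60. That floor is the median over arrays of each array's lowest scaled signal well above background. A probe can thus be well above background on an array and still lie at the floor. By A_54_P3447, which was well above background in every MetTrp53 and Trp53 tumour, miR-21-3p was at least 2.84-fold higher in MetTrp53 tumours and at least 2.68-fold higher in Trp53 tumours than in the pools. By A_54_P3446 it was at least 1.89-fold higher in MetTrp53 tumours, and for Trp53 tumours, of which 5 of 8 were well above background, no bound is given. None is given for Met tumours either. Met tumour 2 stood at 5.51 by A_54_P3447 and 5.12 by A_54_P3446, and the other 6 reached no higher than 3.79 by the first and lay at the floor by the second. The fit used the mean of all 4 probes, of which 2 sat at the floor of 3.60, and so understates the size of any difference. On that scale tumours exceeded the pools by 0.44 (SE 0.21, limma adjusted p = 0.197) and spindloid tumours exceeded carcinomas by 0.33 (SE 0.14, limma adjusted p = 0.202), and neither passed. The first did pass in the authors' deposited table, at 1.29 (limma adjusted p = 0.0377), and with the summed signal per miRNA, at 2.18 (limma adjusted p = 0.0238).

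Genotypes differed in miR-21-3p much as in the 5p arm. MetTrp53 tumours ran from 3.99 to 4.33 (median 4.27) and Trp53 tumours from 3.61 to 4.69 (median 4.30), against 3.60 to 4.46 (median 3.60) in Met tumours, where Met tumour 2 alone reached 4.46. Trp53 tumours were higher than Met tumours by 0.47 (SE 0.15, limma adjusted p = 0.0478), which passed narrowly, and MetTrp53 tumours by 0.47 (SE 0.15, limma adjusted p = 0.0777), which did not. The Trp53 call was lost in 10 of 16 other settings and in 12 of 15 fits that left out 1 array, with limma adjusted p up to 0.0981 in those 15 fits.

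**Figure D4:**
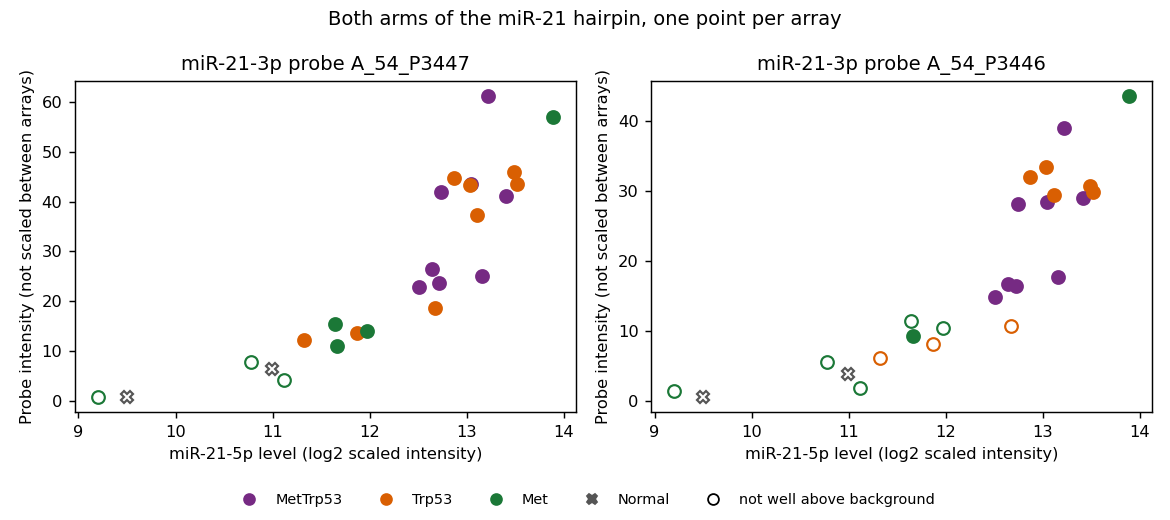
Intensity of the 2 miR-21-3p probes seen most often against the miR-21-5p level (log2 scaled intensity), 1 point per array; open symbols were not well above background. For the probe on the left, every array with a 5p level of at least 11.32 is filled and every array below it is open.

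The arms moved together across the 23 tumours. Pearson's r between their levels was 0.86 and Spearman's rho 0.92 (permutation p = 1e-05 for each, the smallest that 100000 resamples can give, and 3e-05 after Benjamini-Hochberg adjustment over the 3 sets of tumours). Leaving out Met tumours 1 and 3, the farthest from the median, r was 0.93. Within the 12 carcinomas r was 0.78 (permutation p = 0.0034, adjusted 0.0051) and rho 0.89, and r was 0.88 without Met tumour 1 and Trp53 tumour 4. Within the 7 spindloid tumours r was 0.76 (exact permutation p = 0.065) and rho 0.61 (exact permutation p = 0.17). With normexp background correction, which lifts the dim 3p probes to an offset, r over all tumours was 0.02 (permutation p = 0.91).

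The miRNAs whose levels ran most like miR-21-5p across the 23 tumours were taken from the other 159 detected on all arrays. Over those, the median r with miR-21-5p was -0.01, with quartiles of -0.34 and 0.29. All values share arrays, scaling and depth of detection, and they are given as a description. The highest were miR-350-3p (r = 0.88), miR-223-3p (0.83), a miRNA of granulocytes and macrophages, miR-199b-5p (0.82) and miR-199a-3p (0.78), miRNAs of fibroblasts and other mesenchymal cells, and miR-221-3p (0.80), which represses the cell cycle inhibitor p27. The lowest were miR-30a-5p (-0.81), miR-30c-5p (-0.78) and miR-30e-3p (-0.76) of the miR-30 family, miR-146b-5p (-0.75), known to damp NF-kB signalling, and miR-1839-3p (-0.74). Of these, miR-30e-3p and miR-1839-3p were dim and near the floor of 3.60. Their medians were 4.12 and 3.98 in carcinomas and 3.71 and 3.73 in spindloid tumours. Within the 12 carcinomas these 10 kept their sign, from 0.64 to 0.90 for the first 5 and from -0.76 to -0.62 for the last 5. The carcinomas are among the 23 tumours by which the 10 were chosen, so the kept sign is no separate check.

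**Figure D5:**
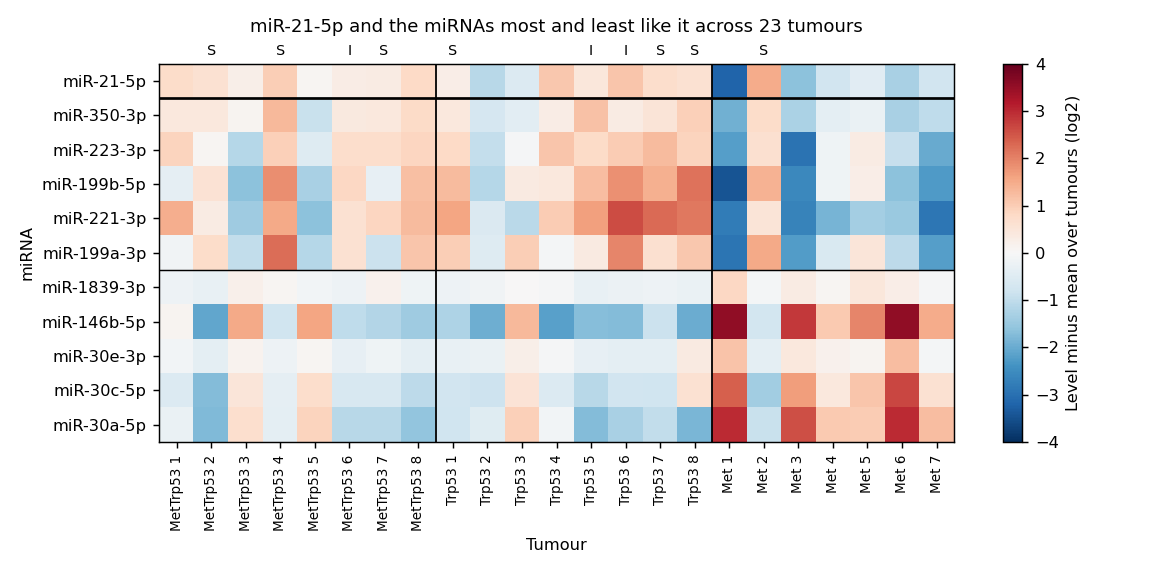
Level minus the mean over tumours (log2) of miR-21-5p, the 5 miRNAs with the highest and the 5 with the lowest correlation to it, in 23 tumours ordered by genotype (S spindloid, I intermediate). In the Met carcinomas at the right, miR-21-5p and the 5 below it are mostly blue and the last 5 mostly red, while Met tumour 2 shows the opposite colours.

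Of the 10, several also passed the test between tumour groups. They had been chosen by r with miR-21-5p across these same tumours. Group differences that follow miR-21-5p are therefore partly built in by the choice and are no separate evidence. In spindloid tumours against carcinomas 5.76% of all miRNAs were called. There miR-350-3p was higher by 1.07 (limma adjusted p = 0.0198), miR-199b-5p by 2.05 (0.015) and miR-221-3p by 2.01 (0.0101), and miR-30a-5p fell by 1.74 (0.00949). All 4 calls were lost without Met tumour 2, and that of miR-350-3p also without MetTrp53 tumour 5. Without Met tumour 2 the limma adjusted p ran from 0.0812 to 0.182 and the changes were 0.87 for miR-350-3p, 1.77 for miR-199b-5p, 1.82 for miR-221-3p and -1.42 for miR-30a-5p; without it only 3 of 330 miRNAs were called. The levels of miR-350-3p were 6.41 to 7.29 in spindloid tumours and 4.06 to 6.40 in carcinomas, so the classes all but met. How many other miRNAs separate the classes was not counted. In Trp53 against Met tumours 10% of all miRNAs were called. Here miR-221-3p was higher by 2.98 (limma adjusted p = 0.00353) and miR-146b-5p fell by 3.24 (0.00286). Both passed whichever of the 15 arrays was left out. Also higher were miR-350-3p by 1.10 (limma adjusted p = 0.0486), miR-223-3p by 1.64 (0.0422) and miR-199b-5p by 2.16 (0.0445). Also lower were miR-1839-3p at -0.43 (limma adjusted p = 0.0154), miR-30c-5p at -1.53 (0.0445) and miR-30a-5p at -2.35 (0.00715). The call of miR-223-3p held in 5 of 15 fits that left out 1 array, and miR-199a-3p and miR-30e-3p did not pass. The calls of miR-350-3p, miR-199b-5p, miR-1839-3p, miR-30c-5p and miR-30a-5p in this comparison were not refitted with single arrays left out. In tumours against the normal pools 0 of the 10 passed, beside 12.7% of all miRNAs, and in Trp53 tumours against the pools 1 did, miR-221-3p at 3.08 (limma adjusted p = 0.0359, passing in 3 of 10 fits that left out 1 array). Whether any of the 10 changed less than miR-21-5p was not tested. For miR-199b-5p, for example, levels of 6.06 to 9.86 in the MetTrp53 and Trp53 tumours lay on both sides of 7.91 and 8.97 in the pools.

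Other miRNAs often described as raised in tumours are miR-155-5p, miR-210-3p, miR-221-3p, miR-222-3p and miR-31-5p. In all tumours against the pools, all 5 had a positive change (median 1.81, against 0.14 over all 330) and 0 of 5 passed, beside 4.85% of all miRNAs called higher. By genotype some did pass. In Trp53 tumours 3 of 5 rose, beside 5.45% of all miRNAs, namely miR-221-3p by 3.08 (limma adjusted p = 0.0359), miR-222-3p by 2.66 (0.0408) and miR-31-5p by 4.37 (0.0435). Of the 5, only miR-31-5p passed in the MetTrp53 group, at 5.10 (0.0159), beside 6.36% called higher, and in Met tumours only miR-210-3p, a miRNA induced by low oxygen, rose by 2.60 (0.0431), beside 3.94%. All of these calls were lost without either pool, and those in Trp53 and Met tumours also without some single tumours, passing in 2 or 3 of the 10 or 9 fits. In spindloid tumours against carcinomas, where 1.52% of all miRNAs were called higher, miR-221-3p and miR-222-3p rose, by 2.01 and 1.75, and in Trp53 against Met tumours they rose by 2.98 and 2.49, while the other 3 did not pass. The spindloid calls were lost without Met tumour 2, with limma adjusted p = 0.0812 for miR-221-3p and 0.0992 for miR-222-3p. In the miR-17-92 cluster, which is linked to proliferation, 3 of 6 rose in tumours against the pools, beside 4.85% of all: miR-18a-5p by 2.09, miR-19b-3p by 1.62 and miR-20a-5p by 1.60. Without either pool these 3 calls were lost, with limma adjusted p up to 0.20, while over all fits that left out 1 array the changes were 1.99 to 2.16, 1.46 to 1.78 and 1.53 to 1.65. Of the cluster, 0 of 6 rose in spindloid tumours against carcinomas and miR-92a-3p fell by 0.72, beside 4.24% of all called lower (limma adjusted p = 0.0467, passing in 7 of 22 fits that left out 1 array). Among miRNAs induced in inflammation (miR-146a-5p, miR-146b-5p, miR-155-5p, miR-181b-5p), 0 of 4 passed against the pools, beside 12.7% of all miRNAs, and miR-146b-5p fell in Trp53 against Met tumours.

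Markers of other cell types moved with the same groups, and their part in the miR-21 differences was not tested. The summed level of 4 skeletal muscle miRNAs was 48.5 to 2120 in tumours, at the floor in the median tumour, against 10700 to 15200 in the pools, and 4 of 4 fell, beside 7.88% of all miRNAs called lower. That of 3 adipose-linked miRNAs was 129 to 878 in tumours, against 1010 to 2280 in the pools, and 2 of 3 fell, miR-378-3p and miR-365-3p. Both endothelial miRNAs fell, with sums of 190 to 1410 in tumours against 1720 to 2120 in the pools. Of these calls, miR-133b-3p and miR-126-3p were lost without either pool, miR-126-3p also without Trp53 tumour 5, and miR-365-3p without the multiparous pool. For leukocytes the sums were 129 to 1530 in tumours and 296 to 880 in the pools, and for the mesenchymal list 178 to 4340 and 1050 to 1950.

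Between pathologies, the epithelial list (the miR-200 family) stood at 60.6 to 115 in spindloid tumours, where 60.6 means that all 5 members are at the floor, against 66.3 to 4900 in carcinomas, and 5 of 5 fell (median -3.90, against -0.03 over all 330, of which 4.24% were called lower). Without Met tumour 2, miR-200b-3p and miR-429-3p still passed (limma adjusted p = 0.0126 for each), and the other 3 stood at 0.0657 to 0.104. The epithelial markers of mammary tissue were thus at or near the floor in tumours labelled spindloid. They were equally low in the intermediate tumours, at 60.6 to 96.8. Low sums were also seen in the adenocarcinoma Trp53 tumour 4, at 66.3, and in MetTrp53 tumour 8, of no stated pathology, at 64.3. The mesenchymal list stood at 608 to 4340 in spindloid tumours, against 178 to 1850 in carcinomas, and 1 of 6, miR-199b-5p, rose, beside 1.52% of all, though not without Met tumour 2 (limma adjusted p = 0.12). The leukocyte list stood at 680 to 1490 in spindloid tumours, against 129 to 1530 in carcinomas, with 0 of 4 passing, beside 5.76% of all. Between genotypes, the epithelial sums were 60.6 to 2200 in Trp53 tumours (median 63.7) against 60.6 to 4900 in Met tumours (median 2120). There 3 of 5 fell (median change -3.38), beside 4.55% of all called lower. The mesenchymal sums were 666 to 3960 against 178 to 2800, and 1 of 6 rose (median change 1.48), beside 5.45% called higher. These calls were not refitted with single arrays left out. The leukocyte sums were 345 to 1490 in Trp53 tumours against 129 to 1530 in Met tumours. Of that list only 1 of 4 had a positive change, and the median change was -0.27. This was miR-223-3p, which rose by 1.64, beside 5.45% of all miRNAs called higher (limma adjusted p = 0.0422, passing in 5 of 15 fits that left out 1 array). The erythroid sums, from miR-451 and miR-144-3p, overlapped in all these groups.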

How the data were processed

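Spots carry intensity values from Agilent Feature Extraction 10.7.3.1, background-subtracted and not normalised between arrays, per the file headers. The authors also deposited log2 values per spot (RMA, per the submitters' processing notes, with no version given). Its column medians were 1.72 to 1.91, r with log2 intensity was at least 0.995 on each array, and its centring is unknown. Outlier spots were dropped and spots of a probe averaged. Signals were divided by each array's 75th percentile over 221 probes well above background on all arrays (at least 0.5 of their spots), floored at 0.0212 of it, multiplied by the median percentile (572.5) and logged. Probes of a miRNA were then averaged, with 3.60 as the lowest level. A miRNA was tested if the scanner software detected it on at least 7 tumour arrays or both pools.

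limma 3.58.1 in R 4.3.3 was fitted over 330 miRNAs, and calls were made at a Benjamini-Hochberg adjusted p below 0.05. Genotypes and pools shared 1 model of 25 arrays, pathology used 22 tumours with genotype as a covariate, and parity used 13. The scripts' tests were checked on simulated data. Replicates were numbered in accession order, and separate animals are not stated, so p-values measure the spread between samples. The number of arrays limits the precision.

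Members and lists were chosen with earlier results of these data known. Named were both arms, miRNAs of the same seed, the 5 with the highest and 5 with the lowest r, and for each list counts with its largest changes. Lists also fixed were basal or squamous epithelial and erythroid miRNAs; miR-486-5p was not matched by name on the array. Alternatives were normexp (on median signals, as no mean signal column was used), other scalings, summaries, filters, floor, blocks, covariates, and leaving out each array.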

Additional observations from a re-analysis of the deposited data

Results flagged for a closer look

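Met tumour 2, the only spindloid tumour among the Met tumours, stood apart in miR-21-3p. Its level was 4.46, against 3.60 to 3.65 in the other 6 Met tumours, and the gap took up 0.94 of the group's range, above the critical value of 0.568 for 7 samples. Most of those 6 lie at the floor, which removes their spread, so the critical value and the rate of about 1 in 20 groups that chance gives do not hold here. Its intensity by A_54_P3447 was 57.1, against 0.656 to 15.5 in the other 6. It also had the highest miR-21-5p level of all tumours, 13.89. With 1 spindloid Met tumour, the tumour and its pathology cannot be told apart.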

How the results depend on the processing

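No paired analysis was possible because replicate numbers were given in accession order and no groups compared share 2 or more title numbers; slide and scan date were blocks instead. Of 525 recomputed values, 475 kept their direction and side of the threshold, 33 lost a call, 11 gained one and 6 changed sign. Leaving out 1 array at a time gave 1.39 to 2.88 for miR-21-5p in tumours against normal, 1.94 to 3.43 for MetTrp53, 1.75 to 3.24 for Trp53 and 0.48 to 1.97 for Met against normal, 1.09 to 1.87 for MetTrp53 and 0.89 to 1.67 for Trp53 against Met, -0.01 to 0.31 for MetTrp53 against Trp53, 0.19 to 0.59 for parity (0.02 to 0.59 in other settings), and -0.10 to 0.46 for spindloid against intermediate. For miR-21-3p it gave 0.19 to 0.45 for spindloid against carcinoma, and 0.45 to 0.60 for MetTrp53 and 0.39 to 0.59 for Trp53 against Met.

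With the percentile over all mouse probes, miR-21-5p against normal lost its calls at 1.77 for all tumours (limma adjusted p = 0.136), 2.17 for MetTrp53 (0.0707) and 2.26 for Trp53 (0.0669), and MetTrp53 against Trp53 turned to -0.09. With slide as a block it lost them at 1.75 (0.107) and, for Trp53, 2.19 (0.0503), and with scan date at 1.80 (0.0655). Scan date as a block brought Trp53 against Met past the threshold at 1.39 (0.0429), as did dropping genotype for spindloid against carcinoma, at 1.35 for miR-21-5p and 0.45 for miR-21-3p (0.0379). Quantile normalisation put spindloid against intermediate at 0 after rounding, just below it.

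For miR-21-3p, tumours against normal passed in the authors' table (1.29) and with summed signal (2.18), which also brought MetTrp53 against Met past it (1.67, 0.0409). Trp53 against Met lost its call with normexp (0.12), the percentile over all probes or quantile normalisation (0.50 each), no filter or trended variance (0.47 each), a higher floor (0.17), slide (0.48), pathology (0.31) or parity (0.52) as a term, and carcinomas only (0.40). Normexp turned spindloid against carcinoma to -0.05 and took the arms' r to 0.02. Which feature of each setting caused these moves was not tested. Averaging tumours of 1 title number could not change the parity comparison and gave no value there. The dim 3p probes limit what can be seen of that arm.

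Counts of miRNAs called moved by over 1.5 times in many settings. They went as low as 17 without the multiparous pool for tumours against normal (42 as reported), 22 for MetTrp53 against normal (49), 20 for Trp53 against normal (44) and 13 for Met against normal (41). MetTrp53 against Met had up to 41, without Met tumour 2 (0 as reported), and Trp53 against Met had 62 without it and 0 among carcinomas (33). Spindloid against carcinoma had 38 without genotype, 3 without Met tumour 2 and 0 among Trp53-deleted tumours (19). Intermediate against carcinoma reached 10 and parity 2 (0 each).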
